A study of Mus musculus with 6 samples.

Results

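Integrins and the proteins that tie them to the actin cytoskeleton form focal adhesions, the sites where a cell grips the matrix around it. An integrin is a dimer of an alpha and a beta chain: the alpha chain largely sets which matrix protein is bound, and the short tail of the beta chain recruits talin and kindlin inside the cell. Talin and vinculin link that tail to actin filaments, the complex of ILK, PINCH and parvin adds another link, and focal adhesion kinase with paxillin and p130Cas passes signals on. In the testis, Sertoli cells sit on a basement membrane rich in laminin and collagen IV and hold it with integrins of this kind.

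The 33 genes described here are 16 integrin subunit genes and 17 genes for proteins of the focal adhesion inside the cell, chosen by name from 49203 named genes in the tables. Total RNA was sequenced from Sertoli cell lines that express a GFP reporter on the Y chromosome (GFP-positive, labelled green, replicates 2, 4 and 7) and from lines that do not (GFP-negative, labelled non-green, replicates 9, 11 and M). The question is what sets lines with the reporter on apart from lines without it. The labels name neither the strain, the age nor the allele carrying the reporter, and do not state if a line is 1 clone or if replicates were cultured separately. The p-values therefore reflect spread among 6 libraries only, and that spread may be technical.

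Levels are scaled FPKM: fragments per kilobase of transcript, summed over the transcripts that carry a gene's name and scaled between libraries by the median ratio. Differences are on the scale of log2(FPKM + 0.5), GFP-positive minus GFP-negative, a scale that makes changes in scarce transcripts look smaller. A gene is said to rise or fall where limma's adjusted p was under 0.05 over all 13595 genes tested. Aligned bases came to 11.2 to 11.8 Gb per GFP-positive library and 8.25 to 10.02 Gb per GFP-negative library. The first principal component (62.5% of the variance) placed the GFP-positive libraries between -60.8 and -44.7, GFP-negative 9 at 14.1, and GFP-negative 11 and M at 83.1 and 62.5. Of the Sertoli markers, Clu averaged 1894 ± 824 FPKM over GFP-positive libraries and 1862 ± 1176 FPKM over GFP-negative ones, and Cldn11 averaged 274 ± 86.5 and 263 ± 144 FPKM in that order (SD, n = 3 each). Not all of the 14 Sertoli markers listed were alike between the groups: Sox9 (-1.89) and Gata4 (-1.79) fell and Dmrt1 rose (1.13). Another, Rhox5, was scarce, with 0.231 FPKM in its highest library.

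About as many integrin and focal adhesion genes fell in the GFP-positive libraries as did not pass, and none rose. Of the 33, 29 had a mean of at least 0.5 FPKM and were tested: 15 fell and 0 rose, where 11.5% of all genes tested fell and 12.3% rose. At an unadjusted p under 0.05, 18 were lower and 0 higher. The median log2 difference of the 29 was -1.03, beside -0.01 over all genes tested, and each of the 29 differences was below 0, as were 50.3% of those of all genes. The libraries of the groups did not overlap for 17 of them, GFP-positive being lower, and this held for 22.7% of all genes tested. The filter on the mean lets in genes that are high in 1 group. Itga11, Itgb3 and Tln2 had a mean under 0.5 FPKM in the GFP-positive libraries, and of the other 26 genes 13 fell, beside 11.3% of all genes with a mean of at least 0.5 FPKM in both groups. In these bulk samples, fewer cells of a type and less RNA per cell cannot be told apart.

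How many genes passed depended on the libraries included. Without GFP-positive 7 none of the 29 passed in limma, beside 0.0147% of all genes that fell, and without GFP-negative M none did either, beside 0.0294%. The lowest adjusted p among the 15 was then 0.0556 and 0.0551, while 17 and 16 of the 29 were lower at an unadjusted p under 0.05 and the median difference was -1.07 and -1.09. Without GFP-positive 2, 4 fell (Fermt2, Tns1, Vcl and Actn4), beside 4.05% of all genes. Without GFP-positive 4, 10 fell, beside 4.91%, without GFP-negative 11, 10 of 28 fell, beside 5.86%, and without GFP-negative 9, 16 fell, beside 18.5%. With no filter on low values 3 of 33 fell (Tns1, Vcl and Actn4), beside 0.933%. With libraries scaled to an equal sum of FPKM 22 fell, but the median of all genes then moved to -0.67, with 35.1% of them lower and 3.76% higher. On this scaling the median of the 29 minus that of all genes was -1.14.

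**Figure D1:**
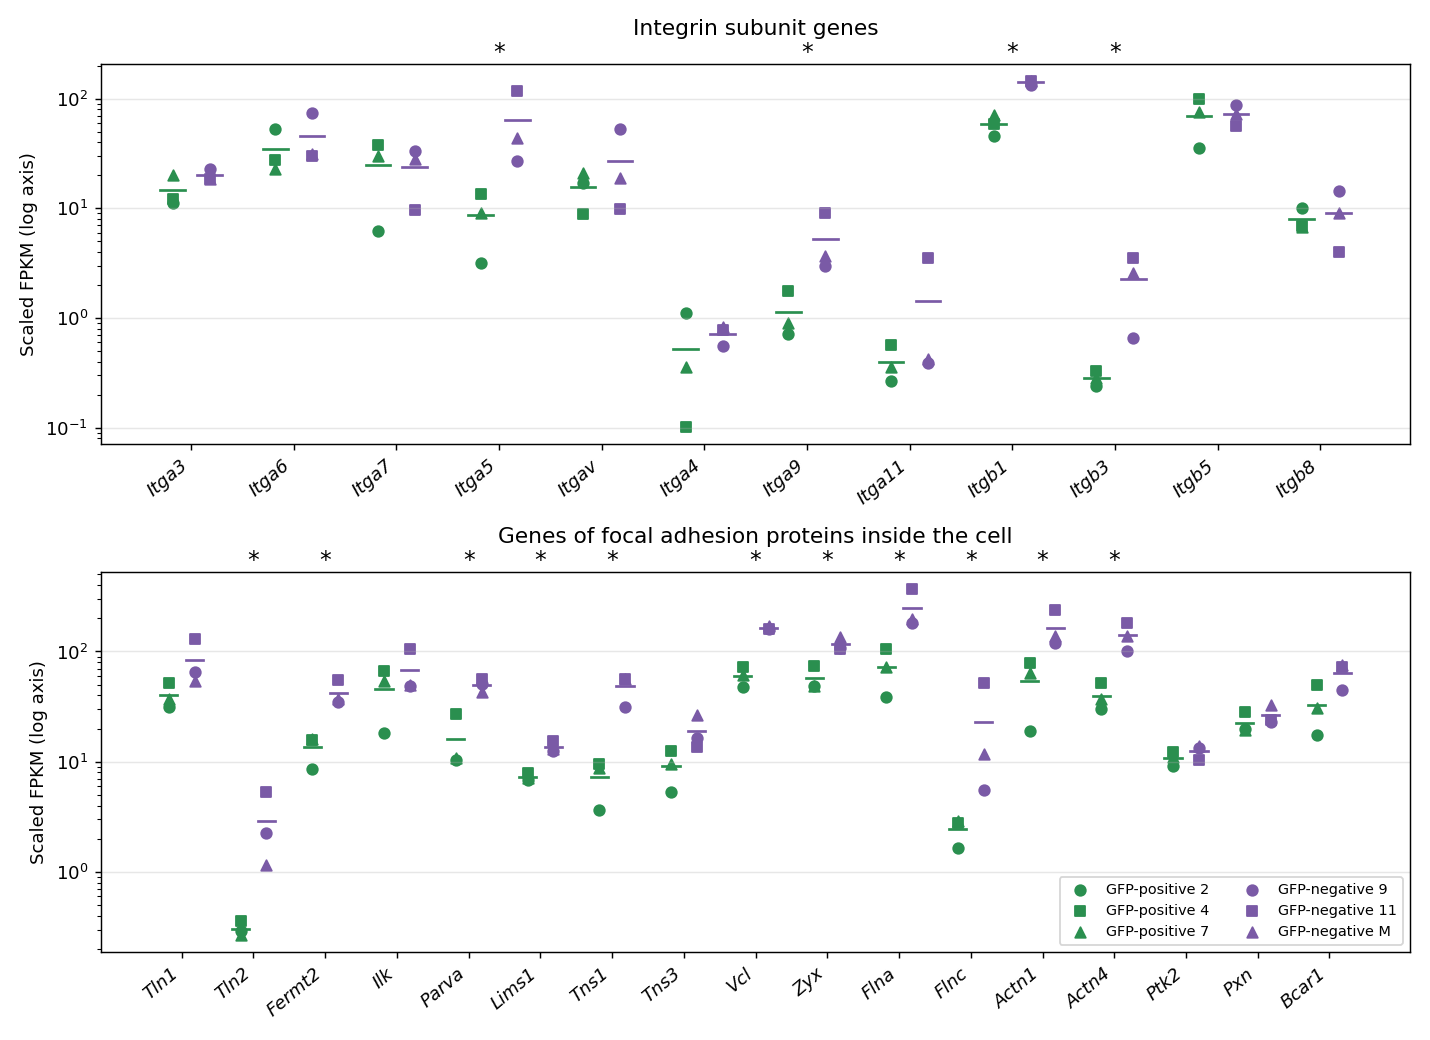
Scaled FPKM (log axis) of the 29 tested genes in each library, integrin subunits above and proteins inside the cell below. Horizontal bars are group means of 3 libraries, shapes only tell libraries apart, and an asterisk marks an adjusted p under 0.05 in limma. All 6 actin linker genes from Vcl to Actn4 carry an asterisk, and Ptk2 and Pxn overlap between the groups.

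Promoters were searched for motifs because many of these genes were lower together. The 300-base windows around gene starts come from RefSeq (GRCm38.p6, a build other than the mm39 of the tables) and covered 25 of the 33 genes, 22 of them tested and 12 among the 15 that fell. A gene with several windows counts once if any holds the motif. The CArG box, the motif bound by serum response factor, which drives many genes of the actin cytoskeleton, was in 2 of the 22 tested (9.09%), Vcl and Fermt2, beside 1.59% of 9794 tested genes with a window. The TEAD motif GGAATG (either strand) was in 5 of the 22 (22.7%), Actn4, Flna, Flnc, Itgb1 and Vcl, beside 14.1% of the tested genes. The AP-1 motif TGANTCA (its own reverse complement) was in 4 (18.2%), Actn4, Itga3, Itga9 and Zyx, beside 5.86%. Of these, Itga3 did not fall, and its match was in the window at chr11:95069149-95069448, not in that at chr11:95076665-95076964. Windows were not matched to the transcripts expressed here, so a match may lie away from the start in use. Which annotated start of Itga9 its window covers was not checked. The GC box GGGCGG (either strand) was in 18 (81.8%), beside 70.5%. None of these motifs contains another, though matches may lie side by side. A match describes letters in a window only. The windows of Vcl (chr14:20929148-20929447, plus strand) and Fermt2 (chr14:45530016-45530315, minus strand) are printed 5′ to 3′ because they hold a CArG box, shown in capitals, which begins 227 and 204 bases before the gene start.
Vcl: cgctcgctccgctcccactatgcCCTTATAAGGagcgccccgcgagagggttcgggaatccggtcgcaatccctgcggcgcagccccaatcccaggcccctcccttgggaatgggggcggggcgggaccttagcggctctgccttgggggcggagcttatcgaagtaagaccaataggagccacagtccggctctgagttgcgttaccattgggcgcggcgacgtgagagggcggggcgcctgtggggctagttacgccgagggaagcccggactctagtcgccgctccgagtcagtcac
Fermt2: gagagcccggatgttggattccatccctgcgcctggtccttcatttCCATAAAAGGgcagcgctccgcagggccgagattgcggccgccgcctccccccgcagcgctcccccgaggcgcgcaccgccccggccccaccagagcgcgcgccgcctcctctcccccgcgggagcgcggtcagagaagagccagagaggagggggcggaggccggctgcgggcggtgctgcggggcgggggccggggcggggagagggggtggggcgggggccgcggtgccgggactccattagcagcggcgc

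All 6 genes listed as actin linkers fell, beside 11.5% of all genes tested, with a median log2 difference of -1.79. The talin genes, whose products also link to actin, were counted with the adaptors below. Vcl encodes vinculin, which reinforces the link between talin and actin. Its level was 47.5, 72.9 and 61.1 FPKM in GFP-positive 2, 4 and 7, against 159, 159.9 and 171 FPKM in GFP-negative libraries 9, 11 and M (log2 difference -1.45, SE 0.27, adjusted p = 0.0133). The GFP-negative libraries were close together and the highest GFP-positive library was below each of them. Flna, the gene of the actin crosslinker filamin A, stood at 38.6, 105 and 72.6 FPKM in the GFP-positive libraries, against 182, 367 and 198 FPKM in the GFP-negative libraries (log2 difference -1.82, SE 0.43, adjusted p = 0.0230). It was the most abundant of the 33 genes by its mean over the libraries. Actn4, which encodes a non-muscle alpha-actinin, stood at 30.3, 52.2 and 36.9 FPKM in the GFP-positive libraries, against 101, 180.1 and 139.5 FPKM in the GFP-negative libraries (log2 difference -1.80, SE 0.32, adjusted p = 0.0129). The groups were again apart, with GFP-negative 11 highest.

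The other non-muscle alpha-actinin gene, Actn1, had 18.8, 78.7 and 63.5 FPKM in the GFP-positive libraries, against 119, 238 and 138 FPKM in the GFP-negative libraries (log2 difference -1.78, SE 0.53, adjusted p = 0.0436). GFP-positive 2 was low within its group. Zyx, the gene of zyxin, a LIM protein recruited to adhesions under tension, had 48.9, 73.7 and 48.8 FPKM in the GFP-positive libraries, against 107, 106 and 135 FPKM in the GFP-negative libraries (log2 difference -1.03, SE 0.28, adjusted p = 0.0327). Flnc, the gene of the muscle filamin, was much less abundant, at 1.67, 2.79 and 2.87 FPKM in the GFP-positive libraries, against 5.49, 51.4 and 11.8 FPKM in the GFP-negative libraries (log2 difference -2.44, SE 0.68, adjusted p = 0.0347). Its mean of 22.9 ± 24.9 FPKM in the GFP-negative group rests largely on GFP-negative 11. Without that library its difference was -1.57 (adjusted p = 0.0395).

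Adaptors that bind integrin tails, or join them through ILK as PINCH and parvin do, divided into genes that fell and genes that did not pass. Of 8, 5 fell (62.5%), beside 11.5% of all genes tested. Among those that fell, Tln2 averaged under 0.5 FPKM in the GFP-positive libraries and was tested through its GFP-negative level. Tns1 encodes a tensin, an adaptor of mature adhesions that binds beta tails and actin. It had the second largest fall among the 33 genes, at 3.68, 9.47 and 8.77 FPKM in the GFP-positive libraries, against 31.4, 56.9 and 56.2 FPKM in the GFP-negative libraries (log2 difference -2.69, SE 0.40, adjusted p = 0.00987). Fermt2, the gene of kindlin-2, which activates integrins together with talin, had 8.66, 15.8 and 16.01 FPKM in the GFP-positive libraries, against 35.02, 54.7 and 36.9 FPKM in the GFP-negative libraries (log2 difference -1.63, SE 0.32, adjusted p = 0.0144). For both genes every GFP-positive library was below every GFP-negative one.

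Of the ILK-PINCH-parvin complex, Parva and Lims1 fell and Ilk did not pass. Parva (alpha-parvin, the actin-binding member) had 10.4, 27.0 and 10.9 FPKM in the GFP-positive libraries, against 51.0, 56.1 and 43.3 FPKM in the GFP-negative libraries (log2 difference -1.74, SE 0.38, adjusted p = 0.0179). Lims1 (PINCH, the LIM-domain member) had 6.81, 7.96 and 7.13 FPKM in the GFP-positive libraries, against 12.5, 15.4 and 13.2 FPKM in the GFP-negative libraries (log2 difference -0.86, SE 0.23, adjusted p = 0.0313). Both were lower in each GFP-positive library than in any GFP-negative one. Ilk, the scaffold that joins them, had 18.2, 66.0 and 54.0 FPKM in the GFP-positive libraries, against 48.2, 105 and 49.9 FPKM in the GFP-negative libraries. Its groups overlapped and its log2 difference of -0.65 (SE 0.51) did not pass (adjusted p = 0.364). The ratio of Parva to Ilk was 0.570, 0.410 and 0.201 in GFP-positive 2, 4 and 7, against 1.06, 0.534 and 0.868 in GFP-negative libraries 9, 11 and M, and the groups overlapped, though with unnamed isoforms added they did not (0.570, 0.410 and 0.350 against 1.06, 0.602 and 0.868). A difference between these genes was not tested. Ilk overlaps Taf10 and Rrp8 on the other strand, and the strand setting of the counting is not stated.

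The talin genes differed in level. Tln1, the gene of the broadly expressed talin, had 31.3, 52.3 and 36.8 FPKM in the GFP-positive libraries, against 65.6, 129 and 54.2 FPKM in the GFP-negative libraries. These groups did not overlap, but the log2 difference of -0.97 (SE 0.37) did not pass (adjusted p = 0.0874). Tln2 stood at 0.292, 0.358 and 0.269 FPKM in the GFP-positive libraries, against 2.27, 5.34 and 1.16 FPKM in the GFP-negative libraries, and fell (log2 difference -1.90, SE 0.43, adjusted p = 0.0207). Tns3, a second tensin gene, at 9.08 ± 3.59 FPKM over GFP-positive libraries and 18.9 ± 6.98 FPKM over GFP-negative ones (SD, n = 3 each), did not pass (log2 difference -1.03, adjusted p = 0.0730). Tln1 overlaps Creb3 on the other strand, and Vcl overlaps Ap3m1.

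The signalling scaffolds gave no call. Bcar1, the gene of p130Cas, a substrate of focal adhesion kinase and Src, was the most abundant, at 17.4, 49.6 and 30.7 FPKM in the GFP-positive libraries, against 44.5, 71.8 and 75.9 FPKM in the GFP-negative libraries (log2 difference -1.05, SE 0.40, adjusted p = 0.0858). Ptk2, which encodes focal adhesion kinase itself, had 10.7 ± 1.56 FPKM over GFP-positive libraries and 12.5 ± 1.94 FPKM over GFP-negative ones (log2 difference -0.21, SE 0.25, adjusted p = 0.546). Pxn, the gene of paxillin, had 22.5 ± 5.01 and 26.6 ± 5.42 FPKM in the same order (log2 difference -0.24, SE 0.27, adjusted p = 0.533). A miss of the threshold does not show that these levels were equal. Ratios between genes do not depend on how libraries are scaled, and 4 were computed, each chosen after the values were seen and so given as a description. The ratio of Vcl to Pxn was 2.41, 2.57 and 3.13 in GFP-positive 2, 4 and 7, against 6.96, 6.66 and 5.22 in GFP-negative libraries 9, 11 and M, with no overlap.

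**Figure D2:**
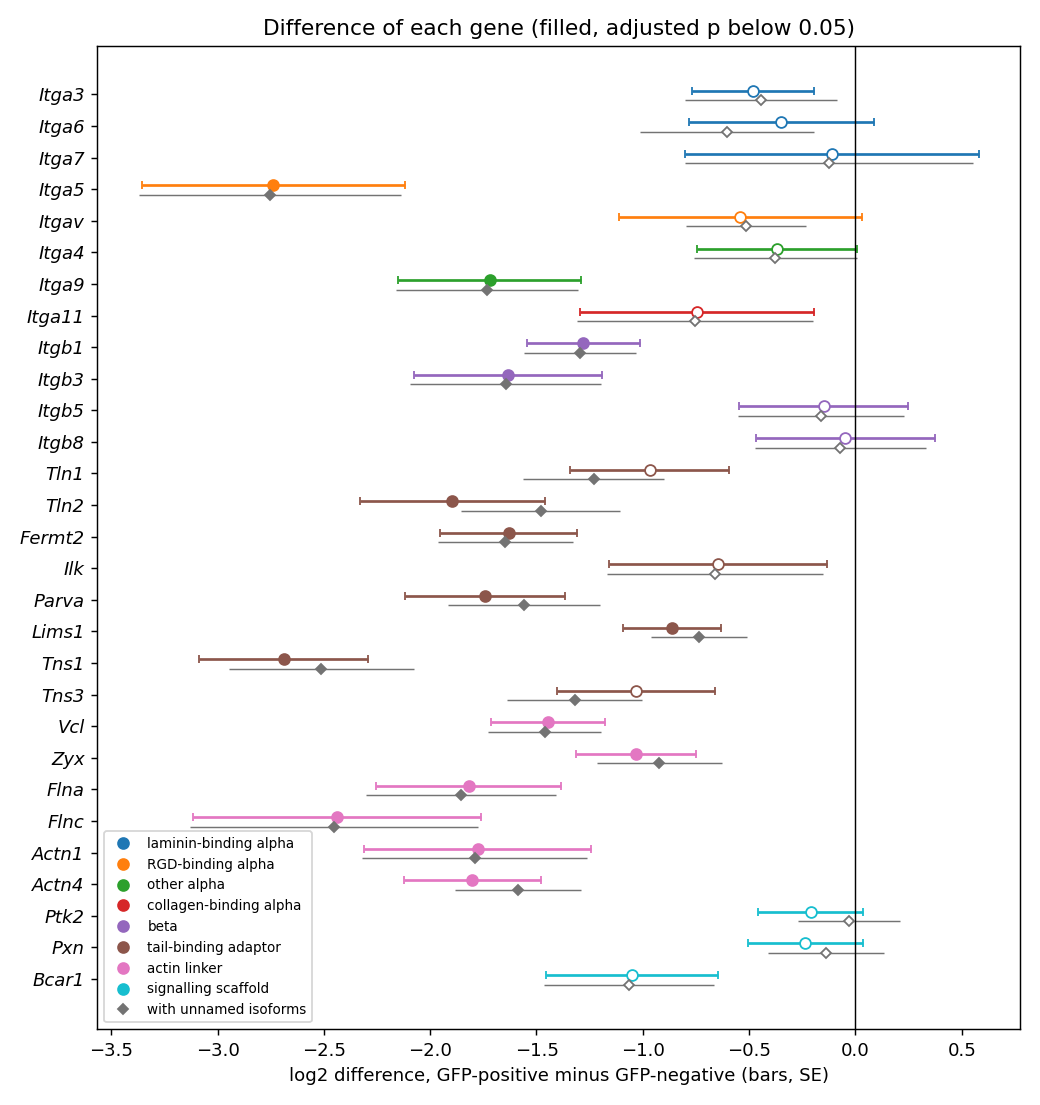
The log2 difference (GFP-positive minus GFP-negative) of each of the 29 genes with its SE, coloured by role; grey diamonds are the same with unnamed isoforms of the locus added, and filled symbols passed in limma. The actin linkers lie between -2.44 and -1.03, and the laminin-binding alpha chains between -0.48 and -0.11.

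Among the integrin subunits 4 of the 12 tested fell (33.3%), beside 11.5% of all genes tested. These were Itga5, Itga9, Itgb1 and Itgb3. Itgb3, and Itga11 among those that did not pass, averaged under 0.5 FPKM in the GFP-positive libraries and were tested through their GFP-negative level. Itgb1 encodes the beta chain shared by most matrix-binding integrins. It had 45.8, 58.9 and 70.3 FPKM in GFP-positive 2, 4 and 7, against 133, 144 and 144 FPKM in GFP-negative libraries 9, 11 and M (log2 difference -1.28, SE 0.27, adjusted p = 0.0166). The GFP-negative libraries were close together (SD 6.29 FPKM) and apart from the GFP-positive ones. Itgb3, which pairs with the alpha v chain as a vitronectin receptor, had 0.240, 0.329 and 0.284 FPKM in the GFP-positive libraries, against 0.658, 3.51 and 2.59 FPKM in the GFP-negative libraries (log2 difference -1.63, SE 0.44, adjusted p = 0.0327). It was low in every library.

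Itgb5, another partner of alpha v, was abundant and overlapped between the groups, at 35.4, 99.3 and 75.2 FPKM in the GFP-positive libraries, against 87.0, 56.8 and 73.1 FPKM in the GFP-negative libraries (log2 difference -0.15, SE 0.40, adjusted p = 0.802). Itgb8, a further alpha v partner that activates TGF-beta, averaged 7.94 ± 1.85 FPKM over GFP-positive libraries and 9.10 ± 5.13 FPKM over GFP-negative ones (log2 difference -0.05, SE 0.42, adjusted p = 0.943). Itgb4, the beta chain of epithelial hemidesmosomes, was below 0.13 FPKM in every library and was not tested. The ratio of Itgb1 to Itgb5, chosen after the values were seen, was 1.29, 0.593 and 0.935 in GFP-positive 2, 4 and 7, against 1.53, 2.54 and 1.97 in GFP-negative libraries 9, 11 and M, with no overlap between the groups.

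Itga5, whose product pairs with the beta 1 chain as the main fibronectin receptor, had the largest fall among the 33 genes. It stood at 3.14, 13.5 and 9.14 FPKM in the GFP-positive libraries, against 27.0, 119 and 44.0 FPKM in the GFP-negative libraries (log2 difference -2.74, SE 0.62, adjusted p = 0.0202). The groups were apart, but values within each group varied several-fold. Itga9, whose chain binds tenascin and fibronectin splice forms, had 0.716, 1.77 and 0.891 FPKM in the GFP-positive libraries, against 2.98, 9.06 and 3.64 FPKM in the GFP-negative libraries (log2 difference -1.72, SE 0.43, adjusted p = 0.0256). Both genes were highest in GFP-negative 11 and lowest in GFP-positive 2.

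The laminin-binding alpha genes gave no call. Itga6, the most abundant of them, had 52.8, 27.8 and 22.9 FPKM in the GFP-positive libraries, against 74.0, 30.1 and 31.5 FPKM in the GFP-negative libraries (log2 difference -0.35, SE 0.44, adjusted p = 0.568). Its highest value in each group, in GFP-positive 2 and GFP-negative 9, stood well above the others. An unnamed Itga6 isoform (MSTRG.11388.2) held 40.3% of the locus in GFP-negative M and 2.89% to 14.7% in the other libraries. With it Itga6 had 60.4, 28.5 and 25.8 FPKM in the GFP-positive libraries, against 82.6, 36.0 and 53.3 FPKM in the GFP-negative libraries. The difference was then -0.60 and did not pass (adjusted p = 0.278). Itga7 was lowest in GFP-positive 2 and GFP-negative 11, at 6.22, 38.0 and 29.8 FPKM in the GFP-positive libraries, against 33.6, 9.60 and 28.1 FPKM in the GFP-negative libraries (log2 difference -0.11, SE 0.69, adjusted p = 0.918). Without GFP-positive 2 its difference was 0.67 (adjusted p = 0.382). Itga3 averaged 14.5 ± 4.90 FPKM over GFP-positive libraries and 19.9 ± 2.39 FPKM over GFP-negative ones (log2 difference -0.48, adjusted p = 0.233). Isoforms with no gene name held 16.8% to 70.8% of the Itga3 locus, and with them it averaged 26.8 ± 13.6 and 33.8 ± 3.10 FPKM in that order (log2 difference -0.44, adjusted p = 0.360). The ratio of Itga5 to Itga6 was 0.0594, 0.486 and 0.399 in the GFP-positive libraries, against 0.365, 3.93 and 1.40 in the GFP-negative libraries, and the groups overlapped.

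Collagen-binding alpha genes were scarce. Itga11, the highest of them, had 0.266, 0.566 and 0.356 FPKM in the GFP-positive libraries, against 0.392, 3.49 and 0.423 FPKM in the GFP-negative libraries, and did not pass (log2 difference -0.74, SE 0.55, adjusted p = 0.332). GFP-negative 11 alone was above 1 FPKM. Itga1 (0.168 to 0.762 FPKM over the libraries) and Itga2 (0.00934 to 0.0760 FPKM) were not tested, nor was the RGD-binding Itga8, at 0 to 0.0315 FPKM in GFP-positive and 0.00446 to 0.482 FPKM in GFP-negative libraries. Itga4, a receptor chain for fibronectin and VCAM1, averaged 0.523 ± 0.525 FPKM over GFP-positive libraries and 0.719 ± 0.143 FPKM over GFP-negative ones (log2 difference -0.37, adjusted p = 0.485).

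For some of the 33 genes much of the signal at the locus was assigned to newly assembled isoforms that carry no gene name and are not in the values above. Such isoforms were present at 15 of the genes and reached at least 20% of the locus in some library at 13. For Itgav, the alpha v chain that binds RGD motifs with several beta partners, 1 unnamed isoform (MSTRG.11475.3) held 47.9%, 81.3% and 54.0% of the locus in GFP-positive 2, 4 and 7 and 32.9%, 79.3% and 64.5% in GFP-negative libraries 9, 11 and M. Named transcripts alone gave Itgav 16.97, 8.80 and 21.1 FPKM in the GFP-positive libraries, against 52.8, 9.95 and 18.9 FPKM in the GFP-negative libraries. With the isoform included it had 32.5, 46.8 and 45.6 FPKM in the GFP-positive libraries, against 78.0, 48.9 and 53.7 FPKM in the GFP-negative libraries. The groups then no longer overlapped, but the difference did not pass (log2 difference -0.54 without and -0.52 with it, adjusted p = 0.5003 and 0.189).

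Adding unnamed isoforms gave 17 falls among the 29 and no rise, beside 13.7% and 16.6% of all genes, and the added calls were Tln1 and Tns3. Tln1 had an unnamed isoform of 58 exons (MSTRG.13894.1) that took 40.6% of the locus in GFP-negative M and at most 0.042% in the other libraries. With it Tln1 stood at 31.2, 52.0 and 36.5 FPKM in the GFP-positive libraries, against 64.9, 132 and 92.0 FPKM in the GFP-negative libraries (log2 difference -1.23, SE 0.33, adjusted p = 0.0261). Tns3 then had 12.7, 27.4 and 18.9 FPKM in the GFP-positive libraries, against 40.1, 58.8 and 45.8 FPKM in the GFP-negative libraries (log2 difference -1.32, SE 0.32, adjusted p = 0.0188). In Tln2 the isoform MSTRG.21372.1 held 62.6% to 75.0% in the GFP-positive libraries, against 0, 18.6% and 60.2% in GFP-negative libraries 9, 11 and M, and the fall of Tln2 was smaller with it (-1.48, adjusted p = 0.0213). Ptk2 had 43.0% to 64.7% of its locus in unnamed isoforms and a difference of -0.03 with them (adjusted p = 0.936). Itgb1, Itga5, Itga9, Fermt2, Vcl, Flnc and Actn1 had no unnamed isoform above 0.

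The mix of integrin chains can be read within each library, free of the scaling between libraries, and is given here as a description with unnamed isoforms included. Itgb1 made up 49.1%, 35.4% and 45.6% of the summed FPKM of the 5 beta genes in GFP-positive 2, 4 and 7, against 56.2%, 68.8% and 62.4% in GFP-negative libraries 9, 11 and M. Itgb5 took 38.0%, 59.7% and 48.7% in the GFP-positive libraries, against 36.7%, 27.1% and 31.7% in the GFP-negative libraries. Among the 11 alpha genes, Itga5 made up 2.62%, 7.87% and 6.66% in the GFP-positive libraries, against 10.5%, 45.7% and 20.004% in the GFP-negative libraries. Itga6 held 50.5% in GFP-positive 2 and 32.3% in GFP-negative 9, and 13.6% to 24.0% in the other libraries. The share of Itgb1 was higher in every GFP-negative library than in any GFP-positive one, also on named transcripts alone. That of Itga5 was so only with unnamed isoforms included: on named transcripts it was 13.1% in GFP-positive 4 and 12.6% in GFP-negative 9, so the groups overlapped. The share of Itga6 overlapped between the groups.

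**Figure D3:**
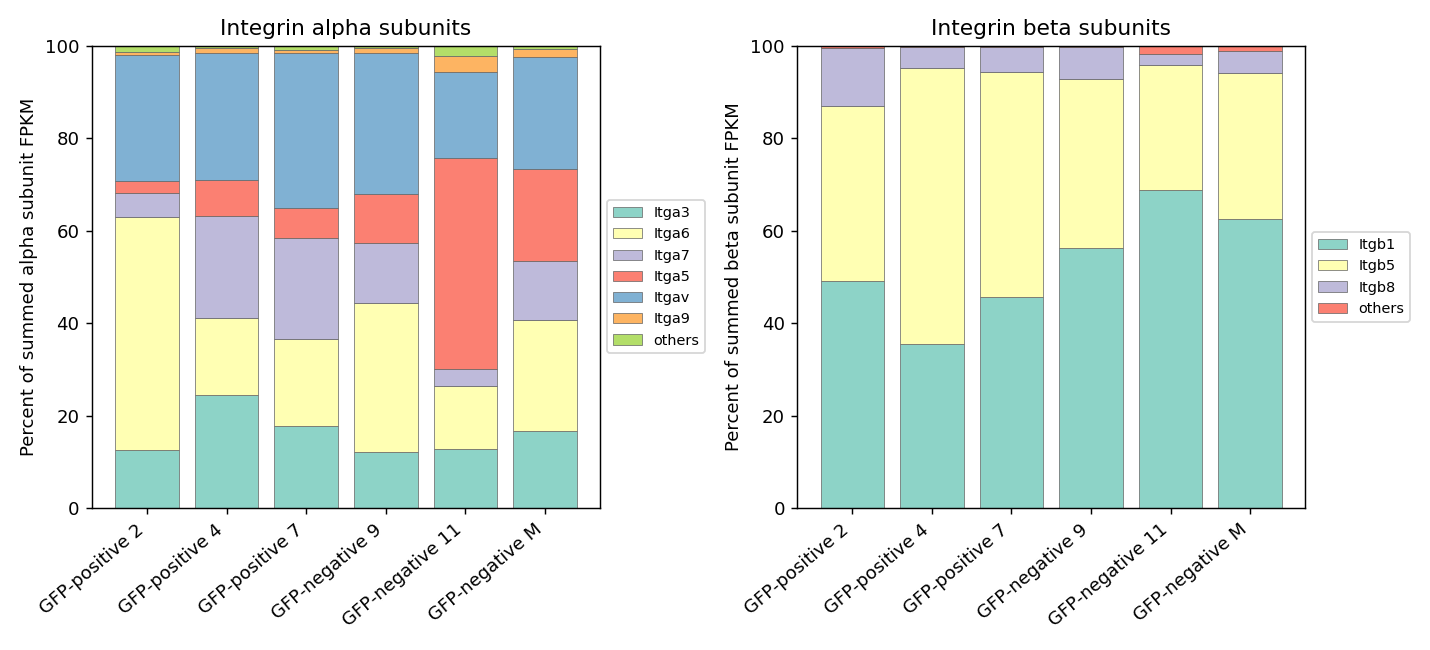
Share of the summed alpha (left) and beta (right) subunit FPKM held by each gene in each library, with unnamed isoforms of the locus included. Itga5 runs from 2.62% to 7.87% in the GFP-positive and from 10.5% to 45.7% in the GFP-negative libraries, and the largest share of Itga6, 50.5%, is in GFP-positive 2.

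Which library was highest or lowest in its group was similar over many of these genes. Of the 29 tested, 22 were lowest in GFP-positive 2 among the GFP-positive libraries (37.0% of all genes tested were), and 21 were highest in GFP-positive 4 (39.0% of all genes). Among the GFP-negative libraries 16 were highest in replicate 11 (38.9% of all genes) and 17 lowest in replicate 9 (42.1%). Of the 15 genes that fell, 13 were highest among the GFP-negative libraries in replicate 11, beside 54.9% of all genes that fell. Of the same 15, 13 were lowest among the GFP-positive libraries in replicate 2, beside 44.4% of all genes that fell.

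Transcript length moved with the difference across the whole table. The tested members had a median transcript length of 4938 nt, weighted by FPKM, beside 2715 nt over all genes tested. The median log2 difference of all genes was 0.72 below 1000 nt and -0.65 from 6000 nt on, and the share that fell was 3.06% and 28.7%. Within genes of 4000 to 6000 nt, 5 of 7 members fell, beside 19.0% of all genes of that length, and from 6000 nt on, 5 of 11 did, beside 28.7%. With the length trend removed in each library 8 of the 29 fell (Itga5, Itgb1, Fermt2, Parva, Tns1, Vcl, Zyx and Actn4), beside 7% of all genes, and the median difference was -0.97, beside 0.03 over all genes. The part of length in the remaining differences was not tested.

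The summed markers of other cells in these libraries did not all run with the adhesion genes. Of 6 peritubular myoid markers, 1 fell (Actg2, -2.17) and none rose, with 2 lower and 0 higher at an unadjusted p under 0.05. The difference was below 0 for 4 of them. Myh11 did not pass in limma (-2.48, adjusted p = 0.0501), but its groups did not overlap and it was highest in GFP-negative 11. Tagln and Cnn1 averaged higher in the GFP-positive libraries and did not pass. The sum of the 6 was 131 to 1879 FPKM in the GFP-positive and 327 to 867 FPKM in the GFP-negative libraries. It was lowest in GFP-positive 2 and highest in GFP-positive 4, led by Tagln (82.4, 1408 and 756 FPKM in GFP-positive 2, 4 and 7). Of 6 fibroblast markers 5 were tested, Col1a1 fell (-4.23) and none rose. The sum was 10.7 to 19.2 FPKM in the GFP-positive libraries, against 16.8, 708 and 150.2 FPKM in GFP-negative libraries 9, 11 and M. Most of it in GFP-negative 11 and M was Col1a1 (682 and 141 FPKM), also counted below as a ligand gene. Pdgfra, Pdgfrb and Tcf21 averaged lower in the GFP-positive libraries and did not pass. Dcn averaged higher there (7.80 ± 5.86 against 3.47 ± 2.01 FPKM) and did not pass, and Lum was scarce. The sum of 5 macrophage markers was 1.65 to 2.23 FPKM in GFP-positive and 3.56 to 7.99 FPKM in GFP-negative libraries. Lyz2, most of it in the GFP-negative libraries, fell (-1.86). Cd68 averaged 1.13 and 0.869 FPKM in that order and did not pass, and Adgre1, Csf1r and Ptprc were scarce and averaged lower in GFP-positive libraries. That of 5 endothelial markers was 3.51 to 6.46 and 7.59 to 12.4 FPKM. It was mostly Cdh5, the only 1 tested, which did not pass in limma (-0.90, adjusted p = 0.0695). Pecam1 and Vwf averaged higher in the GFP-positive libraries, and Kdr and Tek lower. Of 10 germ cell markers 6 were tested and 5 rose, and Prm1 and Prm2 were listed at 0. Their sum was 117, 17.3 and 26.4 FPKM in GFP-positive 2, 4 and 7, against 1.20 to 1.74 FPKM in the GFP-negative libraries, so it was highest in GFP-positive 2, where 13 of the 15 fallen genes were lowest in their group. Of 7 Leydig markers 4 were tested and none passed in limma (0 higher and 1 lower at an unadjusted p under 0.05), with sums of 35.4 to 86.7 FPKM in the GFP-positive and 70.7 to 87.3 FPKM in the GFP-negative group. The lower marker was Insl3 (-1.63, adjusted p = 0.0515), whose groups did not overlap and which was highest in GFP-negative 11. Star, Cyp11a1 and Hsd3b1 made up most of the sums and overlapped between the groups. Of 14 Sertoli markers 1 rose (Dmrt1, 1.13) and 2 fell (Sox9, -1.89, and Gata4, -1.79). Their sum was 3576, 2570 and 1798 FPKM in the GFP-positive libraries, against 3462, 785 and 3220 FPKM in the GFP-negative libraries. GFP-negative 11, where 13 of the 15 fallen genes were highest in their group, was lowest for some of these markers and not for others. It had 511 FPKM of Clu, 101 FPKM of Cldn11 and 58.5 FPKM of Inha, against at least 1210, 186 and 212 FPKM in the other libraries. Trf, Nr5a1 and Dhh were also lowest there. Sox9, Wt1, Gata4, Amh, Dmrt1, Rhox5 and Fshr were not, and Gata1 was at 0 there and in GFP-positive 2 and GFP-negative 9. The part of these markers in the adhesion genes was not tested.

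Other genes of the adhesion pathway were read from lists written out with the 33 genes. Of 40 further adaptors and actin linkers 32 were tested, 7 fell (21.9%) and 1 rose (3.1%), beside 11.5% and 12.3% of all genes tested. Palld (palladin, -2.18), Enah (an actin-elongating Ena/VASP protein, -1.22) and Sorbs3 (vinexin, -1.58) fell. Rsu1, which binds PINCH, rose by 1.09 on the log2 scale (adjusted p = 0.0443), to 44.3 ± 12.5 FPKM in GFP-positive libraries, against 20.6 ± 6.40 FPKM in GFP-negative libraries. Of 29 signalling genes 8 fell (27.6%) and 1 rose (3.4%), beside the same 11.5% and 12.3%. The exchange factor gene Dock1 (-1.96), the phosphatase gene Ptpn11 (-1.59), the adaptor gene Crkl (-1.40) and the GTPase gene Rac1 (-1.16) fell. Itgb1bp1, whose product ICAP-1 binds the beta 1 tail and restrains the integrin, rose by 1.07 (adjusted p = 0.0286), at 28.9, 26.3 and 29.2 FPKM in the GFP-positive libraries, against 18.8, 10.5 and 11.4 FPKM in the GFP-negative libraries. Rsu1 and Itgb1bp1 were chosen for mention after their values were seen.

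Of 10 membrane partners of integrins, all tested, 1 fell (10%) and 2 rose (20%), beside 11.5% and 12.3% of all genes tested. At an unadjusted p under 0.05, 1 was lower and 4 were higher. With 10 genes, no result is read from these shares. The tetraspanin gene Cd9 fell (-1.74), and the tetraspanin gene Cd151, a partner of laminin-binding integrins, rose by 1.38 (adjusted p = 0.0350). Cd151 stood at 226, 438 and 325 FPKM in the GFP-positive libraries, against 186, 90.3 and 107 FPKM in the GFP-negative libraries. Bsg, the gene of basigin, also rose (1.04, adjusted p = 0.0401). Of 10 other integrin subunit genes 2 were tested and none passed (0 at an unadjusted p under 0.05 in either direction). Itgad averaged 1.47 ± 1.38 and Itgax 0.379 ± 0.1002 FPKM in the GFP-positive libraries, against 0.431 ± 0.0782 and 0.962 ± 0.425 FPKM in the GFP-negative libraries. Of 21 ligand genes tested 12 fell (57.1%) and none rose, beside 11.5% and 12.3% of all genes tested, led by adjusted p by the laminin gene Lama2 (-2.05), the fibronectin gene Fn1 (-2.54), Tgfb1 (-1.80) and the fibrillin gene Fbn1 (-1.88). Fn1 had 17.9 ± 6.36 FPKM over GFP-positive libraries and 110.3 ± 55.7 FPKM over GFP-negative ones (adjusted p = 0.0110).

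In the tables (mm39), Vcl lies on chromosome 14 from 20979466 to 21083744, Fermt2 on chromosome 14 from 45696252 to 45767575, Tns1 on chromosome 1 from 73949390 to 74163608, Itga5 on chromosome 15 from 103252713 to 103275190 and Itgb1 on chromosome 8 from 129412135 to 129459681. Vcl and Itgb1 were read mostly from 1 annotated transcript. Of the Vcl locus, ENSMUST00000022369 (21 exons) held 91.7% to 95.2% in GFP-positive and 95.0% to 95.6% in GFP-negative libraries. For Itgb1, ENSMUST00000090006 (16 exons) held 93.3% to 95.1% and 90.7% to 91.7% in the same order. Tns1 was split among more forms, with ENSMUST00000191104 (33 exons) at 33.9%, 15.2% and 17.7% in the GFP-positive libraries, against 48.9%, 33.4% and 33.9% in the GFP-negative libraries. The unnamed Tns1 isoform MSTRG.487.3 (31 exons) held 25.1%, 36.5% and 22.2% in the GFP-positive libraries, against 25.2%, 27.2% and 24.9% in the GFP-negative libraries. All unnamed isoforms together held 28.8% to 48.7% of the locus. A single-exon Tns1 transcript of 2903 nt (ENSMUST00000188436) held 11.7% to 16.8% of the locus in the GFP-positive and 3.58% to 6.34% in the GFP-negative libraries.

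**Figure D4:**
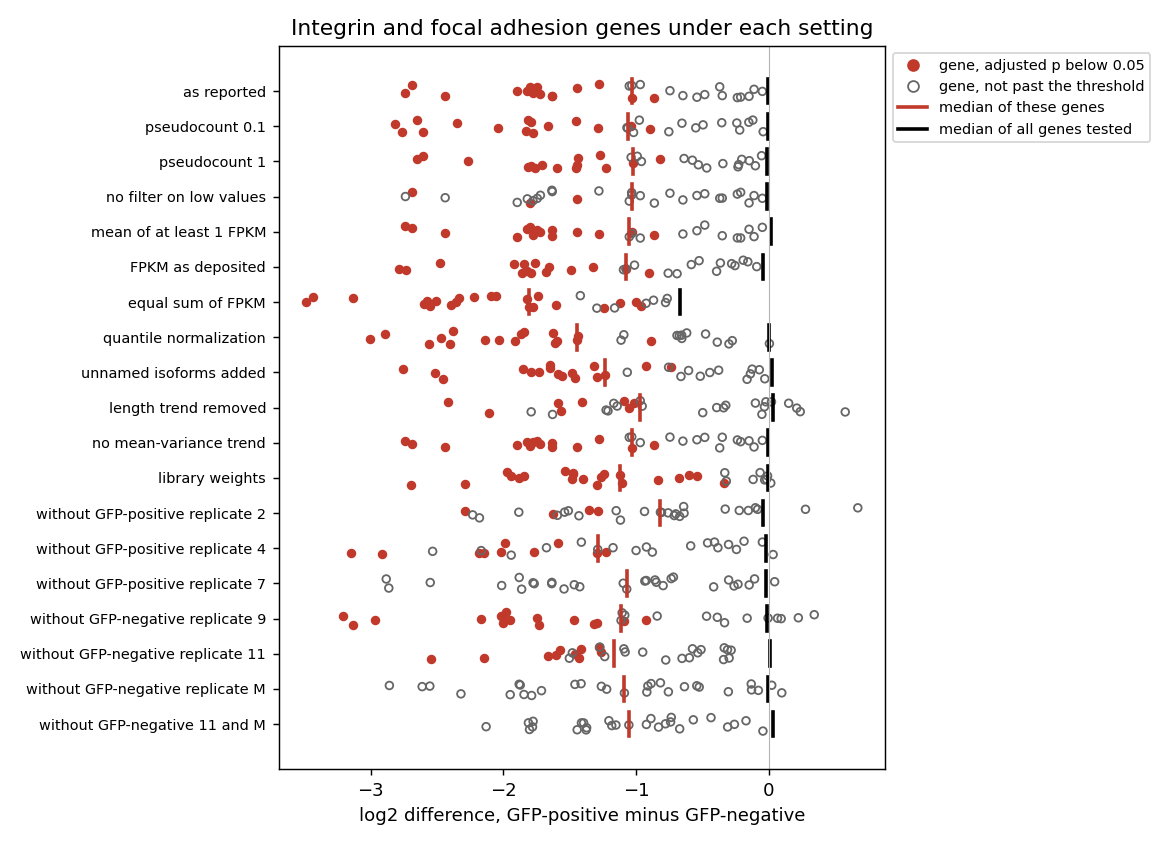
Log2 difference of the 29 genes tested (points; filled where adjusted p is under 0.05 in limma) under each processing setting, with the median of these genes (coloured bar) and of all genes tested (black bar). The median of these genes lies between -1.81, with an equal sum of FPKM, and -0.82, without GFP-positive 2, and filled points number 22 to 0.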

How the data were processed

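RNA was extracted with TRIzol, treated with DNase and depleted of ribosomal RNA before dUTP strand-specific library preparation, per the labels' protocols. Trimmomatic, HISAT2, StringTie and build mm39 are listed, with no versions, per the submitters' processing notes. The deposited tables give the authors' FPKM for each of 153503 transcripts (140727 with a gene name), per the file headers. They also give coverage per base, deposited by the authors, which was used here only to derive aligned bases. Read counts were not used, and values carry no interval for counting error.

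FPKM was summed over the transcripts carrying each gene name and scaled by median ratios over 11678 genes. Genes with no transcript of 200 nt or a mean below 0.5 were left out. Values were compared as log2(FPKM + 0.5) by limma 3.58.1 (R 4.3.3; eBayes with trend) with Benjamini-Hochberg adjustment, a method also tested on simulated data. Python 3.11.15, pandas 2.3.3 and matplotlib 3.10.9 served for tables and figures. The 33 genes, the pathway and marker lists and the tests were chosen with earlier results of these data known. Named were all 33 genes, with values per library for those past the threshold and the most abundant of each role, and up to 4 called genes per pathway list by adjusted p (or else the 2 most abundant). Of the genes this rule names, 1 is not reported here. Alternatives varied the pseudocount, filter, scaling, isoforms, length trend, variance model, library weights and libraries included.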

Additional observations from a re-analysis of the deposited data

How the results depend on the processing

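The 15 falls among the 29 genes became 3 with no filter on low values, 8 with the length trend removed and 0 without GFP-negative 11 and M together, an alternative added after the data were seen (13 of 27 lower at an unadjusted p under 0.05). Leaving out 1 library gave 0 to 16. The 3243 calls among all genes became 680 with no filter, 5344 with an equal sum of FPKM, 1857 with the length trend removed, 10225 with library weights, 12 to 4932 leaving out 1 library, and 0 in limma without GFP-negative 11 and M (1691 higher and 1161 lower at an unadjusted p under 0.05). That alternative leaves GFP-negative 9 alone in its group, assumed to vary like the GFP-positive libraries. The iteration for library weights stopped before convergence, so that count is uncertain.

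Genes that had not passed changed sign in places, and none passed there. With the length trend removed the difference was 0.21 for Itga6, 0.15 for Itga7, 0.24 for Itga4, 0.58 for Itgb8 and 0.02 for Ptk2. It was 0.02 for Itgav with library weights and 0.01 for Itgb8 with quantile normalization. Leaving out 1 library gave -0.70 to 0.07 for Itga6, -0.65 to 0.67 for Itga7, -1.08 to 0.09 for Itgav, -0.46 to 0.28 for Itgb5 and -0.51 to 0.34 for Itgb8. The cause was not tested. No paired analysis was possible because the groups share no replicate number.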
